A study of Homo sapiens with 48 samples.

Results

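The genes described here are 10 targets of the tumour suppressor p53: MDM2, TP53INP1, GDF15, FAS, RRM2B, ZMAT3, SESN1, TP53I3, BTG2 and XPC. They were chosen by name as well-known p53 targets, and are 10 of the 58870 genes in the count tables. RNA was sequenced from 3 human uveal melanoma lines, 92-1, MEL202 and MP41, which the labels give as WT in genotype. Each line received FHT-1015, an inhibitor of both SMARCA4 and SMARCA2, or DMSO, for 4 h or 24 h. The 92-1 line also received IDE196, a protein kinase C inhibitor, or DMSO from a set of its own, for the same times. This made 16 groups of 3 samples that the labels call biological replicates, 48 samples in all. The doses are not in the labels used here, each line is an established culture, and RNA was measured but not p53 protein.

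p53 is a transcription factor that is held low by MDM2 and accumulates after DNA damage and other stress, when it binds response elements near its target genes and raises their transcription. Its targets arrest the cell cycle, repair DNA, counter oxidative stress or promote cell death, and MDM2, itself a target, closes a negative feedback loop. SMARCA4 and SMARCA2 are the alternative ATPases of BAF complexes, which move nucleosomes and open enhancers. Uveal melanomas are driven by activated Gq-family proteins that signal through protein kinase C.

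A p53 response element is 20 bases long and consists of 2 adjacent decamers of the p53 consensus. The sequences below are shown because they are the matches to that consensus in the members' own promoter windows, where the counted transcripts can start. RefSeq windows of 300 bases (250 before a start to 50 after it, build GRCh38.p14) were found for 8 members, with 16 windows in all, and TP53INP1 and RRM2B had none. With no gap between the decamers and up to 3 mismatches allowed, an element was found in a window of 5 of the 8 members. Capitals mark the element. The consensus is its own reverse complement, so a search of 1 strand covers both. The best matches, with 2 mismatches each, were in FAS and MDM2, and each is printed with its flanks.
MDM2 at chr12:68808893-68808972, plus strand: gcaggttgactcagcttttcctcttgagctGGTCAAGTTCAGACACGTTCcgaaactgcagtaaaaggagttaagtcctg
MDM2 at chr12:68808961-68808980, plus strand: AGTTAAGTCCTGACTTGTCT
FAS at chr10:88991279-88991358, plus strand: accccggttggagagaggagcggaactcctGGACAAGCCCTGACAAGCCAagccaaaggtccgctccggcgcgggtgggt
SESN1 at chr6:109009018-109009037, minus strand: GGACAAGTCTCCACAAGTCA
GDF15 at chr19:18386186-18386205, plus strand: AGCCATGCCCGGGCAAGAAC
XPC at chr3:14178570-14178589, minus strand: GAATTTGCCCAGACAAGCAA
The pair in MDM2 began 94 and 56 bases before a RefSeq start and lay in an intron of 7 of its 34 GENCODE 29 transcripts and outside the other 27. The FAS element began 122 bases before a start and was intronic in 11 of 20 transcripts and exonic in 2. The SESN1 element was intronic in 2 of 7 transcripts, and those of GDF15 and XPC overlapped an exon in 3 of 5 and 3 of 7. Over all 35116 windows, 5.2% held an element with up to 3 mismatches and 0.65% held one with up to 2. By gene, it was 6.39% of 27305 genes, 62.5% of the 8 members and 20% of 30 other p53 targets with a window. A match is a run of letters and not a measured binding site, and no match in ZMAT3, TP53I3 or BTG2 says only that these letters are absent from these windows.

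Reads assigned to genes numbered 11394088 to 32317711 per library. Melanocyte marker genes (8 genes, among them PMEL and TYRP1) summed to 2880 to 22300 CPM (read counts scaled to a common library total) in every library, while fibroblast markers (6 genes) reached at most 44.6 CPM and leukocyte markers (6 genes) 6.17 CPM. With FHT-1015 at 24 h all 8 melanocyte markers fell in each line, and their sum was 4740 to 5230 CPM against 19200 to 22300 in DMSO in 92-1, 2880 to 3300 against 8130 to 10000 in MEL202 and 5840 to 6730 against 13200 to 13700 in MP41. Fibroblast markers summed to 13.7 to 16.6 CPM against 3.86 to 4.62 in DMSO in 92-1 at that time, 37.3 to 44.6 against 6.48 to 8.08 in MEL202 and 33.6 to 43.7 against 29.8 to 42.8 in MP41. Of these 6 genes, 3 were tested in 92-1 (2 called higher and 1 lower), 4 in MEL202 (2 higher and 0 lower) and 5 in MP41 (0 called). In 92-1 with FHT-1015 at 4 h, where 7 members were lower, 5 of 8 melanocyte markers were also called lower, and their sum was 15300 to 17300 CPM against 20000 to 21200. With IDE196, fibroblast markers summed to 12.4 to 22.1 CPM against 7.56 to 11.4 in DMSO at 24 h, and keratinocyte markers (6 genes) to 15.4 to 23.9 CPM against 27.9 to 57.4 at 4 h. The part of these marker lists in the members' changes was not tested. Over all libraries keratinocyte markers summed to 7.52 to 63.5 CPM, most of it KRT10. Some libraries stood apart in base composition, measured as the log2 level of AT-rich genes minus that of GC-rich genes, centred in each experiment. It was -0.66 and -1.72 in replicates 1 and 2 of MP41 DMSO at 24 h, -1.08 in replicate 1 of MEL202 DMSO at 4 h and -0.89 in replicate 2 of MEL202 FHT-1015 at 4 h, and -0.19 to 0.38 in the other libraries. Members differ in composition, from RRM2B at the 4th percentile of GC content and FAS at the 12th to TP53I3 at the 81st and GDF15 at the 93rd. Drug effects on members with offsets for GC content and length are given beside the MP41 results at 24 h and most of the MEL202 results at 4 h. The MEL202 fit had a biological coefficient of variation of 0.294, MP41 0.217, and the 92-1 fits 0.117 and 0.112. In bulk RNA, fewer cells of a type and less RNA per cell cannot be told apart.

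In DMSO, the lines kept very different stocks of these transcripts. Values are CPM per kb of exon, which allow genes to be compared, as mean ± SD over the 6 DMSO samples of a line in the FHT-1015 experiments. In MP41, GDF15 stood at 625 ± 202, above RRM2B at 21.8 ± 10.9 and MDM2 at 20.9 ± 5.85. In 92-1, TP53INP1 came first at 10.7 ± 1.32, followed by RRM2B at 8.03 ± 1.03 and ZMAT3 at 6.45 ± 0.656, and FAS came last at 1.6 ± 0.156. In MEL202, GDF15 led at 182 ± 63.4 and TP53INP1 followed at 30.6 ± 10.9, with FAS last at 3.03 ± 1.05. RRM2B and MDM2 in MP41 differed by less than their spread. These DMSO levels include libraries that stood apart in base composition, replicates 1 and 2 of MP41 at 24 h and replicate 1 of MEL202 at 4 h. No offsets for GC content and length were run for DMSO levels or their differences between lines.

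GDF15, a secreted stress cytokine of the TGF-beta family, differed most upward between lines. Its DMSO mean was 4.92 ± 1.64 CPM in 92-1, 379 ± 132 CPM in MEL202 and 1310 ± 421 CPM in MP41, with no overlap between lines. In MEL202 it was higher than in 92-1 by 6.27 ± 0.24 (log2, SE, edgeR adjusted p = 4.86e-20), where 52.9% of all tested genes differed. In MP41 it was higher than in 92-1 by 8.01 ± 0.26 (edgeR adjusted p = 2.65e-22, background 65.0%) and higher than in MEL202 by 1.73 ± 0.19 (edgeR adjusted p = 4.24e-09, background 56.0%). MDM2 rose in the same order, 60.7 ± 3.39, 84.3 ± 20.6 and 278 ± 77.8 CPM, and its step from MEL202 to MP41 was 1.68 ± 0.13 (edgeR adjusted p = 2.15e-12).

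TP53INP1, a stress protein that promotes autophagy and cell death, went the other way in MP41. It had 0 to 10 reads in each of the 12 MP41 samples and a DMSO mean of 0.151 ± 0.187 CPM there, against 61 ± 7.52 CPM in 92-1 and 174 ± 61.8 CPM in MEL202. The gene passed the filter on low counts in the fit over all 3 lines but not in the fit of MP41 alone, so no drug effect is given for MP41. TP53I3 was highest in MP41, at 28.8 ± 7.19 CPM against 12.2 ± 1.39 in 92-1 and 8.46 ± 1.74 in MEL202, and all 3 pairs of lines differed (edgeR adjusted p = 0.00182 or lower). SESN1 was lowest in MP41, at 14.7 ± 4.82 CPM against 26.4 ± 1.52 in 92-1 (edgeR adjusted p = 4.23e-05). Scaled within the MP41 experiment, SESN1 in DMSO was 18.7 ± 1.56 CPM at 4 h and 11.8 ± 5.72 CPM at 24 h. MEL202 and 92-1 were not distinguished in SESN1 (22.2 ± 5.8 CPM in MEL202, edgeR adjusted p = 0.198).

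BTG2 and RRM2B were lower in 92-1 than in both other lines, and MEL202 and MP41 were not distinguished. BTG2 averaged 11.5 ± 3.01 CPM in 92-1, 25.3 ± 2.91 for MEL202 and 23.6 ± 3.74 for MP41 (edgeR adjusted p = 0.471 for MP41 against MEL202). RRM2B averaged 44.6 ± 5.74, 97.5 ± 33.2 and 121 ± 60.3 CPM in the same order (edgeR adjusted p = 0.45 for MP41 against MEL202). Scaled within the MP41 experiment, RRM2B in DMSO was 174 ± 3.68 CPM at 4 h but 78.8 ± 60.5 CPM at 24 h. Replicates 1 and 2 of that 24 h group stood apart in base composition. FAS, ZMAT3 and XPC differed between MEL202 and 92-1 by calls that leaving out single libraries could end. XPC averaged 19.4 ± 1.73, 26.2 ± 8.27 and 22.3 ± 3.38 CPM, and its MEL202 difference from 92-1 (0.43 ± 0.16, edgeR adjusted p = 0.0253) was lost without any of 5 libraries, the largest move being to 0.30 with adjusted p 0.122 without replicate 1 of MEL202 DMSO at 4 h. ZMAT3 in MEL202 exceeded 92-1 by 0.49 ± 0.18 (edgeR adjusted p = 0.0194), but by 0.28 with adjusted p 0.16 without replicate 2 of MEL202 DMSO at 4 h and 0.36 with 0.0941 without replicate 2 at 24 h. FAS in MEL202 exceeded 92-1 by 0.91 ± 0.35 (edgeR adjusted p = 0.0277), a call lost without any of 4 libraries, with the lowest value 0.73 (adjusted p 0.087) without replicate 3 of MEL202 DMSO at 4 h.

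**Figure D1:**
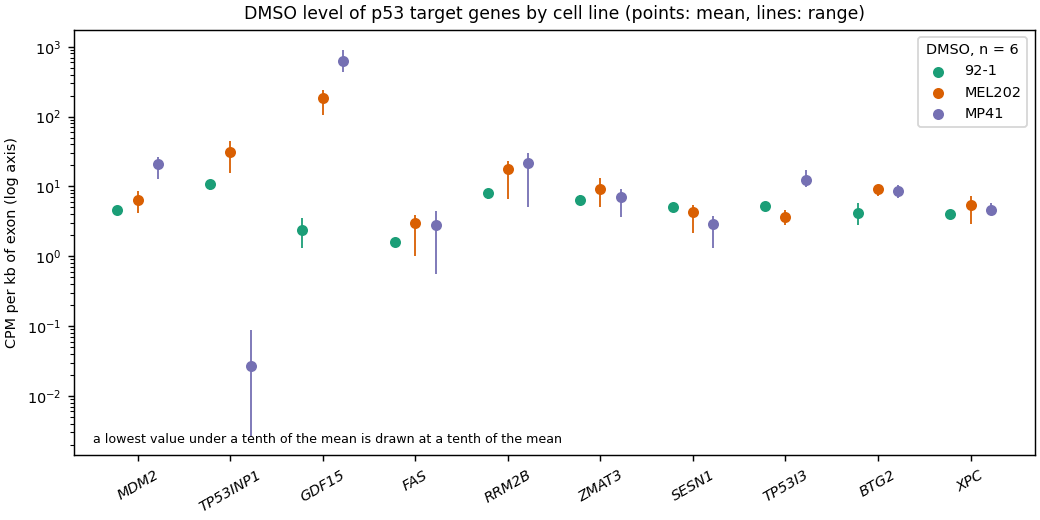
Mean CPM per kb of exon (log axis) of each p53 target gene in the 6 DMSO samples of 92-1, MEL202 and MP41, with lines from the lowest to the highest sample; a lowest value under 0.1 of the mean is drawn at 0.1 of the mean. GDF15 spans 2.36 in 92-1 to 625 in MP41, and TP53INP1 in MP41 lies at 0.0267.

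The 92-1 line has a separate DMSO set for each drug, and these sets differed from each other in 5 of the 10 members, where 60.4% of all genes differed. ZMAT3 was higher in the IDE196 set by 0.94 ± 0.09 (edgeR adjusted p = 2.69e-09), MDM2 by 0.88 ± 0.07 (7.15e-11) and TP53INP1 by 0.76 ± 0.10 (3.22e-07), with RRM2B at 0.31 and BTG2 at 0.35. The BTG2 call was lost without any of 4 single libraries (0.29 to 0.31, adjusted p 0.0652 to 0.0794) and with library size alone (0.26, 0.111). Each drug was therefore compared with its own DMSO set. The drug effects come from separate sets of libraries, so in every difference between the IDE196 and FHT-1015 effects given here, drug and set cannot be told apart.

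Across the 8 comparisons of a drug with DMSO, 78 member tests were possible, of which 21 called a member higher, 16 lower and 41 neither, at an adjusted p under 0.05 over all genes tested. With FHT-1015 in 92-1 at 4 h, 0 members were higher and 7 lower, where 12.9% and 16.7% of all genes were. At 24 h it was 3 higher and 4 lower, against 29.2% and 31.4% of genes. In MEL202, 0 and 1 were called at 4 h (0.157% and 0.522% of genes) and 1 and 1 at 24 h (8.69% and 10.1%). The MEL202 counts depended on the setting: 0 to 3 were lower at 4 h, the most with GC and length offsets, and up to 5 higher and 2 lower at 24 h, by limma-voom. In MP41, 9 members were tested, 0 were called at 4 h (0.0708% and 0.154% of genes) and 6 higher and 1 lower at 24 h (17.4% and 18.7%). With IDE196 in 92-1, 6 were higher and 1 lower at 4 h (6.89% and 9.30% of genes), and 5 and 1 at 24 h (28.7% and 29.4%). The members' median log2 fold change was -0.47 in 92-1 with FHT-1015 at 4 h, against 0.01 for all genes, 0.71 in MP41 at 24 h, against 0.07, and 0.36 with IDE196 at 4 h, against 0.01. At 24 h in 92-1 the members parted in both directions, and their median was -0.08 with FHT-1015 and 0.35 with IDE196. The MP41 count at 4 h rests on a fit with few calls of any kind: 3 of its 9 members had an unadjusted p under 0.05, and limma-voom with quality weights called 4 lower. The MP41 count at 24 h was 1 higher instead of 6 when the 6 samples of that comparison were fitted alone, where SESN1 (adjusted p 0.0561), XPC (0.0524), RRM2B (0.096), TP53I3 (0.101) and ZMAT3 (0.135) no longer passed. The IDE196 count at 4 h was 3 higher instead of 6 without DMSO replicate 5 or without IDE196 replicate 3.

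**Figure D2:**
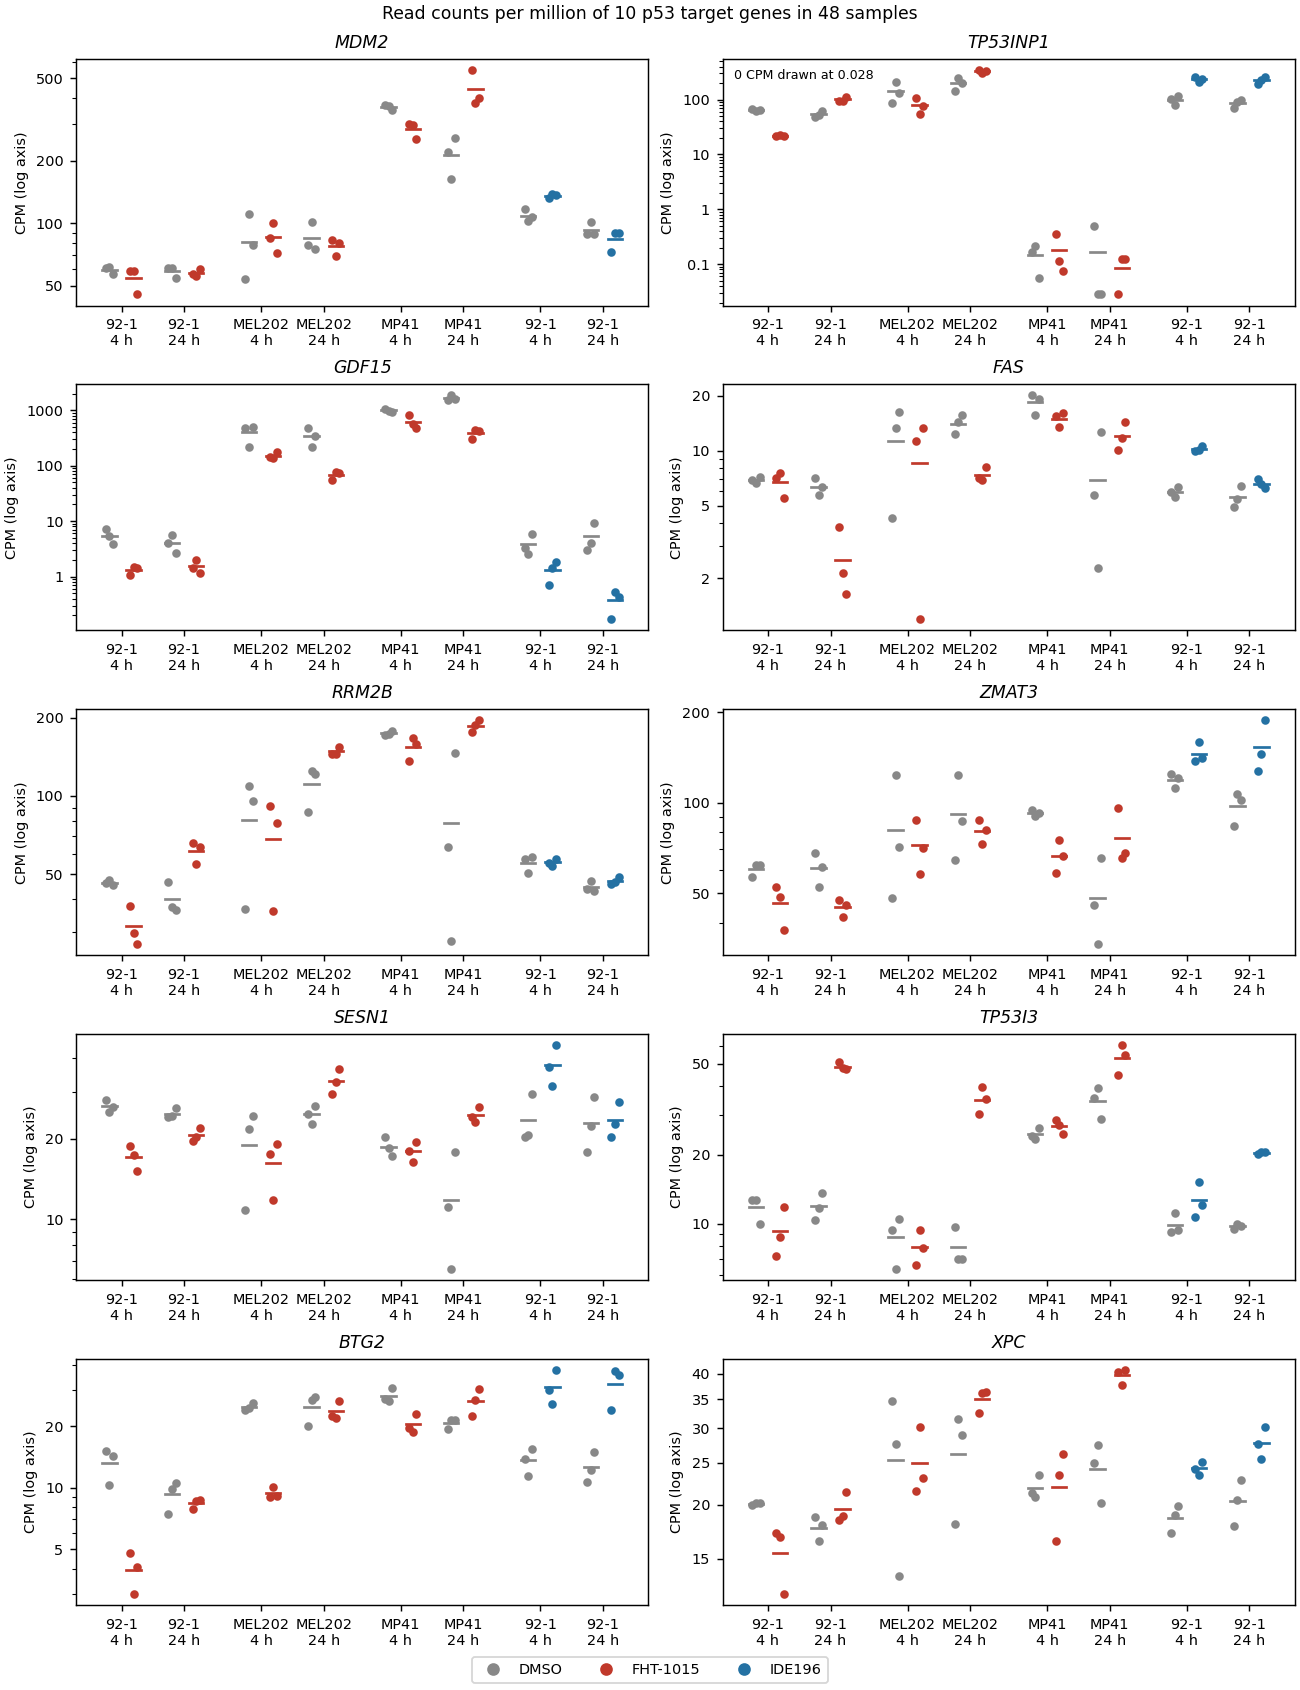
CPM (log axis, 1 panel per gene) in each of the 48 samples, as points, with the mean of each group of 3 as a line; grey is DMSO, red FHT-1015 and blue IDE196. GDF15 lies lower with either drug in every group pair, and TP53I3 lies higher at 24 h in all 3 lines.

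**Figure D3:**
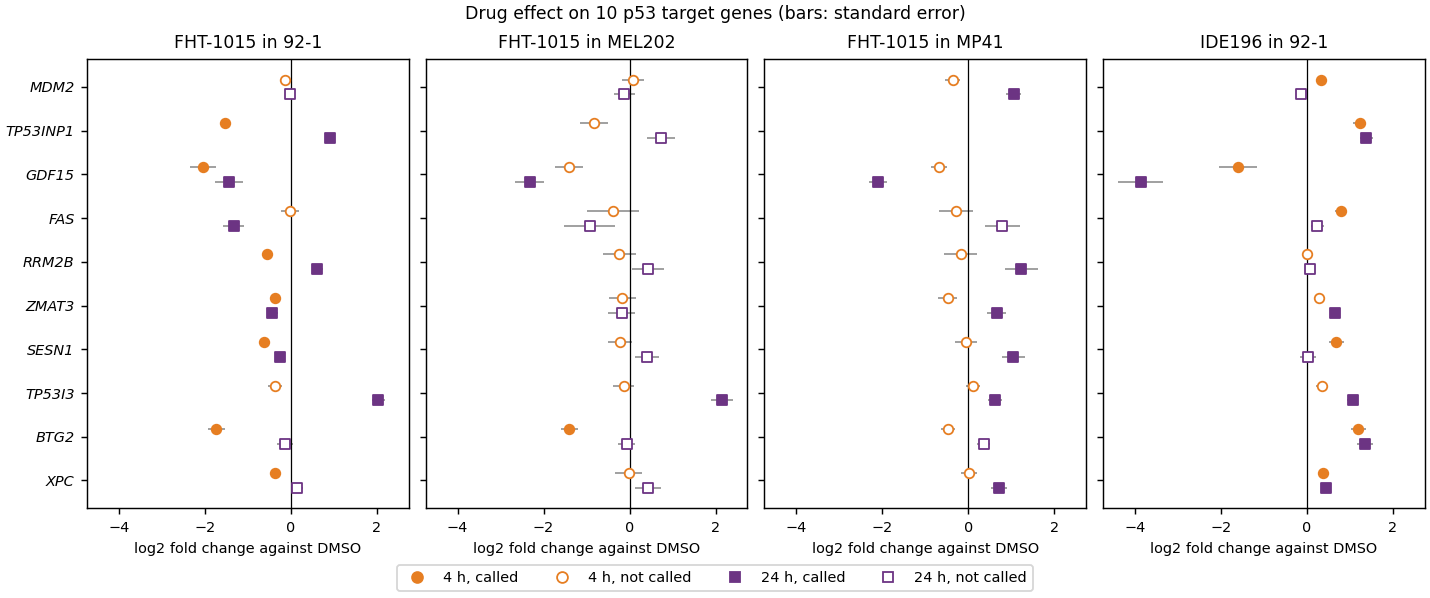
Log2 fold change against the matched DMSO group, with its standard error, for each gene, drug, line and time; filled symbols passed an edgeR adjusted p of 0.05. TP53INP1 and BTG2 fell in 92-1 with FHT-1015 at 4 h (-1.55 and -1.74) and rose with IDE196 (1.23 and 1.20).

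MDM2 encodes the ubiquitin ligase that restrains p53, and FHT-1015 gave no call for it in 92-1 or MEL202. In 92-1 at 4 h it read 60.6, 61.2 and 56.6 CPM in DMSO and 58.6, 58.6 and 45.4 CPM with FHT-1015, and at 24 h 61, 60.7 and 54.5 CPM against 56.8, 55.6 and 59.8 CPM. The groups overlapped at both times, and the log2 fold changes of -0.13 ± 0.10 and -0.03 ± 0.10 were not called (edgeR adjusted p = 0.352 and 0.791). MEL202 gave 0.08 ± 0.25 and -0.12 ± 0.25, also not called. With GC and length offsets the MEL202 values were -0.16 (adjusted p 0.703) and -0.39 (0.108).

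In MP41, MDM2 rose at 24 h. DMSO samples read 221, 164 and 256 CPM and FHT-1015 samples 547, 381 and 403 CPM, so every treated sample was above every DMSO sample. The log2 fold change was 1.05 ± 0.18 (edgeR adjusted p = 0.000525), and 0.63 with adjusted p 0.000327 with offsets for GC content and length. At 4 h the same line read 371, 368 and 353 CPM in DMSO and 301, 296 and 254 CPM with the drug, lower in every sample but not called (-0.36 ± 0.18, edgeR adjusted p = 0.897). The DMSO groups themselves differed, with MDM2 lower at 24 h than at 4 h by -0.77 ± 0.18 (edgeR adjusted p = 0.0424) where 2.59% of genes differed, but 2 of the 3 DMSO libraries at 24 h stood apart in base composition, and no alternative was run for this difference. The effect at 24 h exceeded that at 4 h by 1.41 ± 0.25 (edgeR adjusted p = 0.00183, background 18.6%; 0.81 with GC and length offsets), and at 24 h the lines differed in their MDM2 effect (edgeR adjusted p = 0.00518), where 12% of genes did. MP41 exceeded 92-1 by 0.99 ± 0.26 and MEL202 by 1.12 ± 0.26.

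IDE196 raised MDM2 in 92-1 at 4 h. DMSO samples read 117, 102 and 107 CPM and IDE196 samples 133, 138 and 137 CPM, with no overlap (0.32 ± 0.09, edgeR adjusted p = 0.0273). That call was lost without any of 5 of the 6 samples compared, the least change being to 0.33 with adjusted p 0.0528 without IDE196 replicate 1 and the largest to 0.27 with 0.116 without DMSO replicate 5. The 24 h value was -0.15 ± 0.10 (edgeR adjusted p = 0.195; -0.39 with adjusted p 0.000878 with GC and length offsets), with overlapping groups, and the difference between the times was -0.47 ± 0.13 (edgeR adjusted p = 0.0135, background 30.7%).

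TP53INP1 showed opposite early responses to the drugs in 92-1. With FHT-1015 at 4 h it dropped from 67.3, 61.4 and 64.9 CPM to 21.5, 22.9 and 21.9 CPM. By 24 h it stood above DMSO, at 94.8, 94.7 and 112 CPM against 48, 53.2 and 61.2 CPM. Neither time had overlapping groups, and the log2 fold changes were -1.55 ± 0.10 (edgeR adjusted p = 3.55e-08) and 0.90 ± 0.10 (1.48e-06). The swing between times was 2.44 ± 0.14 (edgeR adjusted p = 9.38e-09), where 45.5% of genes changed their effect.

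With IDE196, TP53INP1 rose at both times, from 102, 78.6 and 118 CPM to 258, 207 and 234 CPM at 4 h, and from 69.9, 90.6 and 99.8 CPM to 190, 227 and 263 CPM at 24 h. The log2 fold changes were 1.23 ± 0.15 (edgeR adjusted p = 2.32e-05) and 1.39 ± 0.15 (6.42e-07). At 4 h the IDE196 effect was above the FHT-1015 effect (2.78 ± 0.20, edgeR adjusted p = 7.61e-11), and 24.6% of all genes differed in this way. By 24 h the difference was 0.49 ± 0.20 and did not pass (edgeR adjusted p = 0.0568), against 33.0% of genes, but it passed without a filter on low counts (0.49, 0.0145) and without any of 5 single libraries (0.47 to 0.58, adjusted p 0.0284 to 0.0475). In MEL202 TP53INP1 went from 86.3, 208 and 133 to 108, 53.6 and 77.8 CPM at 4 h (-0.84 ± 0.32, edgeR adjusted p = 0.42) and from 143, 249 and 204 to 343, 311 and 332 CPM at 24 h (0.72 ± 0.32, edgeR adjusted p = 0.14). The 24 h groups did not overlap, but neither MEL202 effect was called. With offsets for GC content and length both were, at -0.96 (adjusted p 0.00306) and 0.63 (0.00596).

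BTG2, an antiproliferative cofactor of the deadenylation machinery that is also induced as an immediate-early gene, followed the same early pattern. In 92-1 at 4 h it fell from 15.1, 10.3 and 14.2 CPM to 4.76, 3.01 and 4.09 CPM, and in MEL202 from 24, 24.6 and 25.9 CPM to 8.95, 10.1 and 9.12 CPM. The treated samples lay far below DMSO in both lines, with log2 fold changes of -1.74 ± 0.20 (edgeR adjusted p = 6.91e-06) and -1.40 ± 0.20 (0.00577). In a fit of only the 6 MEL202 samples at 4 h, which called no gene at all, the effect was -1.39 with adjusted p 0.281. With offsets for GC content and length the MEL202 effect was -1.465 with adjusted p 0.000213.

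In MP41, BTG2 went from 27.1, 26.7 and 30.8 CPM to 19.6, 18.8 and 22.9 CPM at 4 h, below DMSO in every sample but not called (-0.46 ± 0.16, edgeR adjusted p = 0.473). The lines differed in the 4 h effect (edgeR adjusted p = 0.00799), where 1.38% of genes did, with MP41 above 92-1 by 1.27 ± 0.25. Without a filter on low counts that difference had an adjusted p of 0.0689. By 24 h no BTG2 difference was called: it was -0.14 ± 0.19 in 92-1 (edgeR adjusted p = 0.558) and -0.07 ± 0.19 in MEL202 (0.845), with overlapping groups, and 0.35 ± 0.16 in MP41 (0.0942; 0.49 with adjusted p 0.00579 with GC and length offsets). The change between times was 1.61 ± 0.27 in 92-1 and 1.33 ± 0.28 in MEL202 (edgeR adjusted p = 2e-04 and 0.0108), against a background of 45.5% and 6.89%.

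IDE196 raised BTG2 at both times. Samples went from 13.8, 11.4 and 15.5 CPM to 30, 25.6 and 37.6 CPM at 4 h, and from 10.6, 12.2 and 14.9 CPM to 23.9, 37.1 and 35.4 CPM at 24 h. The log2 fold changes of 1.20 ± 0.18 (edgeR adjusted p = 0.000151) and 1.35 ± 0.18 (5.54e-06) left the effects apart by 2.94 ± 0.28 at 4 h and 1.48 ± 0.28 at 24 h (edgeR adjusted p = 1.18e-08 and 0.000129).

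SESN1 encodes a sestrin, a stress protein that restrains mTORC1. FHT-1015 lowered it in 92-1, from 27.9, 25.1 and 26.3 CPM to 18.8, 17.4 and 15.2 CPM at 4 h (-0.62 ± 0.10, edgeR adjusted p = 0.000232). At 24 h the shortfall was smaller, from 24.1, 24.4 and 26.1 CPM to 19.7, 20.4 and 21.9 CPM (-0.27 ± 0.10, edgeR adjusted p = 0.0327). The 24 h call was lost with library size alone as the scaling (-0.19, adjusted p 0.127), with no filter on low counts (-0.28, 0.113), with DESeq2 (-0.24, 0.0549) and without DMSO replicate 3 (-0.24, 0.0892) or FHT-1015 replicate 1 (-0.23, 0.0956) or 2 (-0.26, 0.0762).

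In MP41 at 24 h SESN1 was higher, at 24.2, 23.1 and 26.3 CPM against 11.1, 6.51 and 17.9 CPM (1.05 ± 0.27, edgeR adjusted p = 0.00794; 0.85 with GC and length offsets). The DMSO samples were spread widely, and the lowest was replicate 2, the library with the largest imbalance in base composition. A difference among lines at 24 h was called (edgeR adjusted p = 0.0392) but passed 0.05 narrowly: leaving out any of 16 single libraries raised it, to at most 0.097 without MP41 DMSO replicate 2 at 24 h. IDE196 raised SESN1 at 4 h from 20.4, 20.7 and 29.5 CPM to 37, 31.5 and 44.8 CPM (0.68 ± 0.18, edgeR adjusted p = 0.0127), a call lost without DMSO replicate 5 (0.60, adjusted p 0.0613) or IDE196 replicate 3 (0.54, 0.0738). At 24 h it was 0.03 ± 0.18, with overlapping groups.

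GDF15 fell with both drugs, and it is the member with the most calls, 6 of 8. In 92-1 it was scarce to begin with: DMSO samples at 4 h read 7.21, 5.41 and 3.81 CPM and FHT-1015 samples 1.08, 1.46 and 1.45 CPM (-2.05 ± 0.30, edgeR adjusted p = 0.000111). At 24 h it went from 4.04, 5.55 and 2.71 CPM to 1.43, 1.98 and 1.16 CPM (-1.44 ± 0.32, edgeR adjusted p = 0.00102). The treated values rest on 20 to 33 reads per library.

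In MEL202 GDF15 dropped from 482, 221 and 502 CPM to 143, 137 and 173 CPM at 4 h and from 472, 217 and 343 CPM to 55.1, 76.6 and 74.2 CPM at 24 h. The groups did not overlap at either time, but only the 24 h fall was called (-2.33 ± 0.34, edgeR adjusted p = 0.000345). The 4 h value was -1.41 ± 0.33 (edgeR adjusted p = 0.0806), and it passed without the filter on low counts, with DESeq2 (adjusted p 0.00346), with the GC offsets (-1.14, 0.00537) and without DMSO replicate 2 (-1.71, 0.0199). In MP41, the line with the highest level, it went from 1048, 987 and 950 CPM to 821, 559 and 482 CPM at 4 h (-0.68 ± 0.20, edgeR adjusted p = 0.273), and this value passed in 4 of 9 alternatives, among them limma-voom (-0.87, 9.87e-05) and the GC offsets (-0.77, 0.00954). By 24 h GDF15 in MP41 had fallen from 1553, 1867 and 1626 CPM to 304, 442 and 430 CPM (-2.10 ± 0.20, edgeR adjusted p = 4.94e-06; -1.96 with GC and length offsets). No difference among lines in the 24 h fall was called (edgeR adjusted p = 0.344). The MP41 fall deepened by -1.42 ± 0.28 between 4 h and 24 h (edgeR adjusted p = 0.00332).

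IDE196 also lowered GDF15. At 4 h it went from 3.3, 2.56 and 5.87 CPM to 0.695, 1.41 and 1.81 CPM (-1.60 ± 0.45, edgeR adjusted p = 0.0198), a call lost without DMSO replicate 6 (-1.20, adjusted p 0.113), IDE196 replicate 1 (-1.28, 0.0975) or IDE196 replicate 2 (-1.68, 0.0518). The 24 h samples went from 2.99, 4.07 and 9.23 CPM to 0.169, 0.525 and 0.432 CPM, which are 4, 11 and 8 reads (-3.87 ± 0.53, edgeR adjusted p = 7.54e-06). The effect grew between times by -2.26 ± 0.72 (edgeR adjusted p = 0.0247), which did not pass without DMSO replicate 6 at 24 h (-1.64, adjusted p 0.0684), IDE196 replicate 2 (-2.20, 0.0538) or 3 (-1.96, 0.0728) at 4 h, or IDE196 replicate 1 at 24 h (-1.88, 0.0805). At 24 h the IDE196 effect was below the FHT-1015 effect by -2.43 ± 0.68 (edgeR adjusted p = 0.00699), whereas at 4 h the effects were not distinguished (0.45 ± 0.59, 0.651).

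FAS encodes the death receptor for FAS ligand. FHT-1015 lowered it in 92-1 at 24 h, from 7.07, 5.67 and 6.29 CPM to 3.82, 2.14 and 1.63 CPM (-1.34 ± 0.24, edgeR adjusted p = 0.000205), after overlapping values at 4 h (-0.02 ± 0.22, 0.949). The change between times was -1.31 ± 0.33 (edgeR adjusted p = 0.00393). FAS in MEL202 at 24 h went from 12.3, 14.2 and 15.6 CPM to 7.04, 6.9 and 8.17 CPM, with no overlap, but was not called (-0.93 ± 0.60, edgeR adjusted p = 0.328; -1.01 with adjusted p 0.000877 by limma-voom). The widest MEL202 spread was at 4 h, where FAS read 4.26 CPM in DMSO replicate 1 and 1.19 CPM in FHT-1015 replicate 2, the libraries that stood apart in base composition.

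In MP41 FAS at 24 h was 5.72, 2.29 and 12.6 CPM in DMSO and 10, 11.7 and 14.3 CPM with the drug (0.79 ± 0.40, edgeR adjusted p = 0.14; 0.37 with GC and length offsets and 1.52 with adjusted p 0.000379 without DMSO replicate 3). IDE196 raised FAS at 4 h, from 5.9, 5.59 and 6.31 CPM to 9.93, 10.1 and 10.6 CPM (0.78 ± 0.14, edgeR adjusted p = 0.00064). At 24 h the value was 0.25 ± 0.14 (edgeR adjusted p = 0.148), but 1.12 with adjusted p 1.39e-06 when both strand-specific columns of the deposited tables were summed. With GC and length offsets the 24 h value was 0.34 with adjusted p 0.0491. FAS shares 8.9% of its exon bases with ACTA2 on the opposite strand, and reads from such stretches are not assigned in the unstranded counts.

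RRM2B, the p53-inducible subunit of ribonucleotide reductase that supplies nucleotides for repair, dipped and then rose with FHT-1015 in 92-1. At 4 h it went from 46.4, 47.6 and 45.3 CPM to 37.9, 29.7 and 26.9 CPM (-0.56 ± 0.13, edgeR adjusted p = 0.00382). At 24 h it went from 46.7, 37.4 and 36.4 CPM to 65.9, 54.9 and 63.4 CPM (0.61 ± 0.13, edgeR adjusted p = 0.000647), and the change of effect was 1.17 ± 0.18 (edgeR adjusted p = 8.65e-05). RRM2B in MEL202 at 24 h stood at 145, 145 and 155 CPM against 86.8, 125 and 121 CPM, above every DMSO sample but not called (0.42 ± 0.37, edgeR adjusted p = 0.497).

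In MP41 at 24 h RRM2B read 63.4, 27.6 and 146 CPM in DMSO and 176, 188 and 195 CPM with FHT-1015 (1.24 ± 0.39, edgeR adjusted p = 0.0242). The DMSO values follow the order of base composition in those libraries, and with GC and length offsets the effect was 0.67 with adjusted p 0.000707. The call was lost without DMSO replicate 1 (1.10, adjusted p 0.0893), FHT-1015 replicate 2 (1.23, 0.0558) or FHT-1015 replicate 3 (1.20, 0.0617), and the effect was 1.97 without DMSO replicate 3. IDE196 gave no call for RRM2B, at 0.00 ± 0.08 and 0.07 ± 0.09 with overlapping groups, and the drug effects differed at both, by 0.56 ± 0.15 and -0.53 ± 0.15 (edgeR adjusted p = 0.00726 and 0.00821).

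XPC encodes a sensor of DNA damage in nucleotide excision repair. It rose with IDE196, from 17.2, 18.9 and 19.9 CPM to 24.2, 23.4 and 25.1 CPM at 4 h (0.38 ± 0.11, edgeR adjusted p = 0.0263) and from 17.8, 20.5 and 22.8 CPM to 27.6, 25.5 and 30.2 CPM at 24 h (0.45 ± 0.11, 0.0021). No sample overlapped at either time. The 4 h call was lost without a filter on low counts (adjusted p 0.0557), DMSO replicate 4 (0.32, 0.0877) or 5 (0.38, 0.0626), or IDE196 replicate 1 (0.38, 0.0628) or 3 (0.35, 0.0852). In MP41 with FHT-1015 at 24 h it went from 24.9, 27.5 and 20.1 CPM to 40.5, 37.8 and 40.8 CPM (0.72 ± 0.18, edgeR adjusted p = 0.00741; 0.98 with GC and length offsets).

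In 92-1 at 4 h XPC read 19.9, 20.1 and 20.1 CPM in DMSO and 17.2, 16.8 and 12.4 CPM with FHT-1015 (-0.37 ± 0.12, edgeR adjusted p = 0.0332). XPC shares 23.8% of its exon bases with the antisense gene AC093495.1, and with both strand-specific columns summed the effect was -0.06 with adjusted p 0.645. Altogether 5 of 9 alternatives ended the call, the others being library size alone (adjusted p 0.0567), no filter on low counts (0.0816), the 6 samples alone (0.059) and the GC offsets (-0.27, 0.077). It was also lost without DMSO replicate 1 (-0.37, 0.0711), 2 (-0.37, 0.0841) or 3 (-0.37, 0.0821) or FHT-1015 replicate 3 (-0.24, 0.121). Reads from the strands cannot be told apart, since the kit does not mark strand.

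ZMAT3 encodes a zinc-finger RNA-binding protein that regulates splicing and mRNA stability. FHT-1015 lowered it in 92-1, from 68.3, 52.7 and 61 CPM to 47.7, 41.9 and 45.6 CPM at 24 h (-0.43 ± 0.12, edgeR adjusted p = 0.00666). At 4 h it went from 56.5, 62 and 62.3 CPM to 52.7, 48.8 and 37.6 CPM (-0.37 ± 0.12, 0.03), a call lost without DMSO replicate 2 (-0.36, 0.0899) or 3 (-0.35, 0.0892) or FHT-1015 replicate 2 (-0.41, 0.0532) or 3 (-0.25, 0.114). IDE196 raised it, from 83.8, 107 and 103 CPM to 127, 146 and 188 CPM at 24 h (0.65 ± 0.13, edgeR adjusted p = 0.000244), and the drug effects differed by 1.08 ± 0.18 (3.36e-05). The treated and DMSO samples did not overlap in any of these.

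In MP41 at 24 h ZMAT3 read 45.7, 33.9 and 65.7 CPM in DMSO and 95.9, 65.8 and 68.1 CPM with FHT-1015 (0.66 ± 0.22, edgeR adjusted p = 0.0312). With offsets for GC content and length it was 0.11 with adjusted p 0.366. It was also lost without DMSO replicate 1 (0.62, 0.0971) or 2 (0.45, 0.074) or FHT-1015 replicate 1 (0.46, 0.14). The ZMAT3 DMSO level at 24 h was -0.94 ± 0.22 relative to 4 h in this line (edgeR adjusted p = 0.0434), but 2 of the 3 DMSO libraries at 24 h stood apart in base composition and no alternative was run for this value.

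TP53I3, a quinone oxidoreductase linked to oxidative stress, was higher at 24 h in every comparison. In 92-1 with FHT-1015 it rose from 10.4, 11.7 and 13.6 CPM to 50.8, 47.9 and 47.5 CPM (2.03 ± 0.16, edgeR adjusted p = 2.31e-08), and in MEL202 from 9.67, 7.01 and 7.01 CPM to 30.3, 39.5 and 35 CPM (2.14 ± 0.25, 7.49e-05). In MP41 it went from 35.6, 39.3 and 28.8 CPM to 44.7, 60.4 and 54.6 CPM (0.63 ± 0.16, 0.00812; 0.82 with GC and length offsets). No treated sample overlapped a DMSO sample. The lines differed in this effect (edgeR adjusted p = 6.73e-05), with MP41 below 92-1 by -1.51 ± 0.27 and below MEL202 by -1.58 ± 0.27.

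At 4 h TP53I3 was not called in any comparison: it was -0.36 ± 0.16, -0.14 ± 0.25 and 0.11 ± 0.16 with FHT-1015 in 92-1, MEL202 and MP41, and 0.35 ± 0.13 with IDE196 (edgeR adjusted p = 0.0847 or above). The 92-1 value with FHT-1015 passed by limma-voom (-0.45, adjusted p 0.00887), with the GC offsets (-0.35, 0.0485) and without FHT-1015 replicate 3 (-0.57, 0.0105). The IDE196 value passed with the GC offsets (0.38, 0.039) and without IDE196 replicate 1 (0.46, 0.0327). The change between times was 2.40 ± 0.22 in 92-1 and 2.28 ± 0.35 in MEL202 (edgeR adjusted p = 6.88e-07 and 0.00191). IDE196 raised TP53I3 at 24 h from 9.49, 10 and 9.82 CPM to 20.1, 20.6 and 20.6 CPM (1.06 ± 0.13, edgeR adjusted p = 2.07e-06). The effect was below that of FHT-1015 in the same line by -0.97 ± 0.21 (edgeR adjusted p = 0.000527).

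CDKN1A, the p53 target that encodes the cell cycle inhibitor p21, was called lower with FHT-1015 in all 3 lines at 24 h and in 92-1 and MEL202 at 4 h. In MP41 at 4 h CDKN1A read 399, 314 and 373 CPM in DMSO and 275, 212 and 253 CPM with the drug, lower in every sample but not called (-0.55 ± 0.15, edgeR adjusted p = 0.235). In 92-1 at 4 h it dropped from 74.9, 70.7 and 68 CPM to 30.2, 25.5 and 33.1 CPM (-1.27 ± 0.12, edgeR adjusted p = 7.86e-07), and MEL202 gave -1.005 ± 0.206 (0.042), a call lost when the 6 samples were fitted alone, where no gene was called. The 24 h values were -0.95 ± 0.12 for 92-1, -0.68 ± 0.20 for MEL202 and -0.42 ± 0.15 for MP41 (edgeR adjusted p = 4.08e-06, 0.0324 and 0.0438). The MEL202 and MP41 calls lie near the threshold, and no alternative setting or left-out library was followed for CDKN1A at 24 h. Replicates 1 and 2 of MP41 DMSO at that time stood apart in base composition. TP53I3 rose in the same 24 h comparisons. IDE196 gave 0.37 ± 0.20 and -0.26 ± 0.20, not called.

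MDM4, the MDM2 partner that also restrains p53, was higher in 92-1 with FHT-1015 at 4 h (0.84 ± 0.15, edgeR adjusted p = 0.00067) and in MP41 at 24 h (0.64 ± 0.20, 0.022). PPM1D, a phosphatase that switches p53 off, was called only with IDE196 at 4 h (0.50 ± 0.11, edgeR adjusted p = 0.005). Of 15 regulators of p53, 5 were higher and 0 lower in MP41 at 24 h, where 17.4% and 18.7% of genes were. The largest rise was that of the kinase ATM (1.02 ± 0.30), from 73.1 ± 37.4 to 148 ± 19.8 CPM (SD, n = 3), with no GC offset applied. In 92-1 with FHT-1015 at 24 h 5 were higher and 4 lower, where 29.2% and 31.4% of all genes were, among them CHEK1, the checkpoint kinase, at -2.18 ± 0.18. IDE196 at 24 h gave 4 and 6, where 28.7% and 29.4% of genes were called, with CHEK1 at -1.95 ± 0.13 and the p53 kinase HIPK2 at 1.66 ± 0.16.

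A list of 37 other p53 targets moved in both directions in every comparison with several calls. In 92-1 with FHT-1015, 2 of 33 tested were higher and 12 lower at 4 h, where 12.9% and 16.7% of all genes were, and 6 and 15 at 24 h (29.2% and 31.4%), with medians of -0.22 and -0.18. The kinase PLK2 led the rises at 4 h (1.73 ± 0.15) and NINJ1, a membrane protein, the falls (-1.93 ± 0.11). At 24 h CYFIP2 was highest (1.80 ± 0.21) and the nuclease AEN lowest (-1.56 ± 0.10), and AEN also led the falls in MEL202 at 24 h (-1.43 ± 0.18), where 3 of 33 rose and 5 fell (8.69% and 10.1% of all genes). In MP41 at 24 h 7 of 34 rose, led by CCNG1 (1.23 ± 0.28), and 9 fell, led by TRAF4 (-1.55 ± 0.17), beside 17.4% and 18.7% of all genes. No GC offset was applied to any gene outside the members, although 2 of the 3 DMSO libraries of MP41 at 24 h stood apart in base composition, and CCNG1 in that DMSO group was 136 ± 77 CPM. With IDE196 it was 6 and 4 at 4 h (6.89% and 9.30% of all genes) and 9 and 9 at 24 h (28.7% and 29.4%), with BBC3, the BH3-only death gene PUMA, highest at both (1.45 ± 0.25 and 1.45 ± 0.24). Lowest were TRAF4 at 4 h (-1.59 ± 0.10) and the kinase PLK3 at 24 h (-2.41 ± 0.28).

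**Figure D4:**
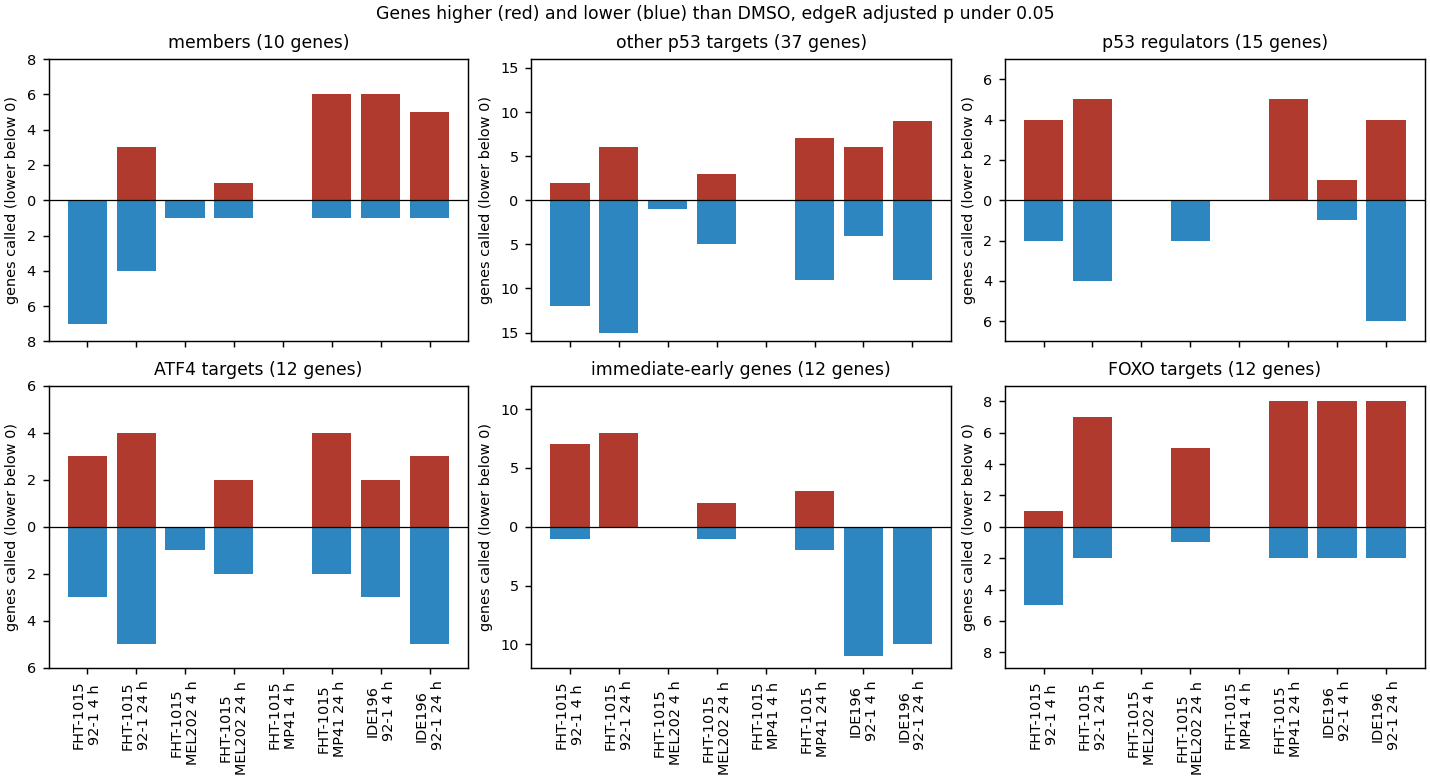
Number of genes of each list called higher (bars above 0) and lower (bars below 0) than DMSO in the 8 comparisons. Immediate-early genes are higher in 92-1 with FHT-1015 (7 and 8 genes) and lower with IDE196 (11 and 10), and other p53 targets have bars on both sides.

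Some members answer to other regulators as well, and lists of those were counted beside them. Immediate-early genes, a class that includes BTG2, were lower with IDE196 in 11 of 11 tested at 4 h and 10 at 24 h (EGR1 at -4.07 ± 0.34), where 9.30% and 29.4% of all genes were lower, while BTG2 was higher. With FHT-1015 in 92-1, 7 of 11 were higher and 1 lower at 4 h (EGR1 at 2.51 ± 0.20 and IER3 at -1.89 ± 0.29), and 8 were higher and 0 lower at 24 h. Beside these, 12.9% and 29.2% of all genes were higher and 16.7% and 31.4% lower, while BTG2 was lower at 4 h. At 24 h 2 were higher and 1 lower of 12 in MEL202 (8.69% and 10.1% of all genes), with DUSP1 at 1.54 ± 0.25 and EGR3 at -1.62 ± 0.26. In MP41 it was 3 and 2 (17.4% and 18.7% of all genes), with DUSP6 at 1.63 ± 0.17 and FOSL1 at -2.37 ± 0.24. Targets of ATF4, the stress factor that also drives GDF15, gave 3 higher and 3 lower of 12 in 92-1 with FHT-1015 at 4 h (12.9% and 16.7% of all genes) and 4 and 5 at 24 h (29.2% and 31.4%). With IDE196 at 4 h they gave 2 and 3 (6.89% and 9.30%). At 24 h they gave 2 and 2 in MEL202 (8.69% and 10.1%), 4 and 2 in MP41 (17.4% and 18.7%) and 3 and 5 with IDE196 (28.7% and 29.4%). The largest rises in 92-1 with FHT-1015 were DDIT3 at 4 h (1.10 ± 0.17) and ATF3 at 24 h (2.46 ± 0.16), both stress transcription factors. CHAC1, a glutathione-degrading enzyme, was lowest of them at both times (-2.49 ± 0.15 and -3.39 ± 0.17). In MEL202 at 24 h DDIT4, an inhibitor of mTORC1, was highest (1.09 ± 0.29) and the pseudokinase TRIB3 lowest (-1.68 ± 0.21). In MP41 they were the lipoprotein receptor VLDLR (2.03 ± 0.23) and TRIB3 (-1.64 ± 0.18). Of 12 FOXO targets, 1 was higher and 5 lower in 92-1 with FHT-1015 at 4 h (12.9% and 16.7% of all genes), and 8 and 2 with IDE196 (6.89% and 9.30%). At 24 h 7 were higher and 2 lower in 92-1 with FHT-1015, 5 and 1 in MEL202, 8 and 2 in MP41, and 8 and 2 with IDE196, beside 29.2%, 8.69%, 17.4% and 28.7% of all genes higher and 31.4%, 10.1%, 18.7% and 29.4% lower. PIK3IP1, an inhibitor of PI3 kinase, led them in 92-1 with either drug (3.50 ± 0.23 and 3.80 ± 0.20), and the pseudokinase TRIB2 was lowest in all 4 (-2.51, -1.37, -1.62 and -0.93).

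Among the members, the log2 deviation of each sample from its matched DMSO mean, over the 48 samples, was most alike for RRM2B and SESN1 (Pearson r = 0.77) and least for GDF15 and TP53I3 (r = -0.47). Among 10500 protein-coding genes compared, those outside the lists most like MDM2 were SLC25A30 (0.827), DBT (0.819), CBX5 (0.817), ALG9 (0.816) and ZFX (0.81). Those most like GDF15 were the kinase gene PIM3 (0.9), the ephrin receptor EPHA2 (0.897), TPST2 (0.858), ZFYVE27 (0.857) and SH3BP1 (0.851). The EPHA2 log2 fold change at 24 h was -0.95 in 92-1, -2.34 in MEL202 and -1.70 in MP41 with FHT-1015, and -2.55 with IDE196. These are descriptions with no test, since the samples share libraries, lines and depth. They were made without GC offsets and include the libraries that stood apart in base composition. RRM2B, SESN1 and MDM2 lie at the 4th, 30th and 24th percentiles of GC content, and GDF15 and TP53I3 at the 93rd and 81st. The part of base composition in these likenesses was not tested.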

How the data were processed

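The authors deposited raw read counts per gene for each of the 48 samples, in the layout of STAR gene counts. The submitters' processing notes name build hg38 and limma, with no role given, and the aligner and annotation are not given in the sources used here. Per the labels' protocols, poly-T-selected RNA was prepared with a kit that does not mark strand (49.73 to 50.11% of reads fell on the first strand), so the unstranded deposited count was used, and 9.35 to 11.83% of reads were ambiguous between genes. Rows that name no gene were left out of library sizes, and 92 spike-in rows held 0 reads. GENCODE 29 (GRCh38) gave symbols to 58597 of 58870 genes by unversioned identifier.

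In each of 4 experiments, 12 samples in 4 groups were fitted with edgeR 4.0.16 in R 4.3.3 (filterByExpr, TMM, quasi-likelihood test, no block), with Benjamini-Hochberg adjustment over all genes tested and 0.05 as threshold. Each standard error was derived from the fold change and its F statistic. Joint fits gave the differences between lines (36 samples) and drugs (24 samples), where the p among lines is from an F test with no single direction. CPM values were TMM-scaled within an experiment, or within the joint fit for DMSO levels, and per kb of exon only where said. DESeq2 1.42.0, limma 3.58.1, other scalings and filters, left-out libraries, a replicate block and GC offsets were alternatives. The procedure was tested on simulated data.

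Members and gene lists were chosen with earlier results of these data known. The naming rule covered the members, MDM4, PPM1D and CDKN1A, per list and comparison the called genes of largest rise and fall (mean CPM of 1 or more), and the 5 genes closest in pattern to MDM2 and GDF15. Replicates are called biological in the labels, but nothing says they came from separate cultures, so p-values measure only the spread between these samples. Counts carry no molecular identifiers. Not every list gene that the rule covers is printed, those printed were picked with their values known, and 1 further gene that the rule always covers is not reported here.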

Additional observations from a re-analysis of the deposited data

Results flagged for a closer look

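These differences between effects passed the test of the difference itself. Between 24 h and 4 h, the FHT-1015 effect in 92-1 changed for TP53INP1 (2.44), TP53I3 (2.40), BTG2 (1.61), RRM2B (1.17), XPC (0.51) and FAS (-1.31), on the log2 scale. In MEL202 it changed for TP53I3 (2.28) and BTG2 (1.33), and in MP41 for MDM2 (1.41), ZMAT3 (1.14), BTG2 (0.82) and GDF15 (-1.42). The IDE196 effect changed for TP53I3 (0.71), MDM2 (-0.47), FAS (-0.54) and GDF15 (-2.26). In 92-1 the XPC change no longer passed without any of 4 libraries (0.45 to 0.50, adjusted p up to 0.0682) or without a filter on low counts (0.48, 0.0723). In MP41 the ZMAT3 change no longer passed without any of 5 (0.94 to 1.13, adjusted p up to 0.0584) and was 0.47 with adjusted p 0.0134 with offsets for GC content and length; those offsets took the MDM2 change to 0.81. In the same line the BTG2 change no longer passed without any of 5 (0.71 to 0.77, up to 0.0761) or without that filter (0.81, 0.0749). The FAS difference with IDE196 had an edgeR adjusted p of 0.0485 and was lost in 3 of 4 other settings (adjusted p up to 0.185) and without any of 11 of its 12 libraries, with adjusted p up to 0.126 without DMSO replicate 6 at 24 h.

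Among lines, the FHT-1015 effect differed at 4 h for BTG2 (edgeR adjusted p = 0.00799) and at 24 h for TP53I3 (6.73e-05), MDM2 (0.00518) and SESN1 (0.0392).

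Between drugs in 92-1, whose effects come from separate sets of libraries so that drug and set cannot be told apart, the IDE196 minus FHT-1015 effect at 4 h was above 0 for BTG2 (2.94), TP53INP1 (2.78), SESN1 (1.31), FAS (0.81), XPC (0.74), TP53I3 (0.72), ZMAT3 (0.66), RRM2B (0.56) and MDM2 (0.45), which are 9 of the 10 members, where 24.6% of all genes differed, and GDF15 was not distinguished. At 24 h, where 33.0% of genes differed, it was 1.59 for FAS, 1.48 for BTG2, 1.08 for ZMAT3, -0.53 for RRM2B, -0.97 for TP53I3 and -2.43 for GDF15. At 4 h the MDM2 and FAS differences were lost without FHT-1015 replicate 3 (0.34 and 0.69, adjusted p 0.0614 and 0.0547), that of MDM2 also without a filter on low counts (0.44, 0.0527), and that of TP53I3 without FHT-1015 replicate 1 (0.55, 0.0557) or IDE196 replicate 2 (0.57, 0.0573).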

How the results depend on the processing

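For 197 values, 997 alternative values other than left-out libraries kept direction and side of the threshold, 55 passed it newly, 25 no longer passed and 1 reversed; of the left-out libraries, 3786 kept both, 33 passed newly, 102 no longer passed and 3 reversed. A further 55 sign changes lay within 1 SE of a value that was never called. The reversals were the time difference of MDM2 in 92-1 with offsets for GC content and length (-0.13), and, without a library, FHT-1015 on ZMAT3 in MEL202 at 4 h (-0.43 to 0.27), the DMSO level of RRM2B in MP41 minus MEL202 (-0.16 to 0.42) and of GDF15 between the 92-1 DMSO sets (-0.24 to 0.22). None of these 4 was called. The GC offsets, and leaving out libraries for differences and DMSO levels, were chosen after seeing the data.

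In MEL202 at 4 h, 1 member was lower; without a low-count filter and with DESeq2 it was 2, with only the 6 samples compared 0, with GC offsets 3 and without a library 1 to 2. There 108 genes were called, against 207, 375, 0 and 522 under those settings and 28 to 137 without a library. At 24 h, 1 member was higher and 1 lower; limma-voom gave 5 and 2, the 6 samples alone 3 and 2, GC offsets 2 and 2, and no filter 2 lower. Genes called went from 2984 to 8824, 6256 and 5163 under limma-voom, the 6 samples and GC offsets, and to 1810 to 4030 without a library. In MP41 at 4 h, 0 members were lower, but 1 with no filter, 4 with limma-voom, 2 with the 6 samples and 1 with GC offsets; genes called were 35, against 122 with no filter, 169 with DESeq2, 650, 346 and 243, and 7 to 141 without a library. In MP41 at 24 h the 6 samples alone called 1 member higher instead of 6, and 3352 genes instead of 5617, which limma-voom took to 9435. IDE196 at 4 h gave 3 to 6 members higher and 0 to 1 lower without a library, and at 24 h 2 lower with GC offsets. The cause was not tested.

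The replicate block moved no count of members or genes by over 1.5 times. Same-numbered samples did not all deviate together: of 18 correlations (-0.46 to 0.66), 11 were over 0.1 and 13 were best with their own number. In MP41 every treated sample was best with its own number (r of 0.03 to 0.29). The same held in 92-1 except for replicate 3 at 24 h (-0.14), whereas in MEL202 it held only for replicate 3 (0.66 and 0.22). The main fits used no block, so any pairing by number in 92-1 and MP41 was left out of them. No paired analysis was possible for IDE196, because its DMSO replicates carry other numbers.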
